A study of Mus musculus with 3 samples.

Results

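The p53 pathway was followed in single mouse embryonic stem cells through 9 genes: Trp53, which encodes p53, and 8 of its target genes, Cdkn1a, Mdm2, Ccng1, Phlda3, Perp, Tnfrsf10b, Bax and Zmat3. They were chosen by name as the p53 gene and known targets, with earlier results of these data known. They are 9 of the 29267 mouse genes in the count tables. The cells were blastocyst-derived embryonic stem cells carrying loxP-flanked (floxed) Mll1 alleles and Cre-ER TM on a C57BL/6J background. Mll1, now Kmt2a, encodes a methyltransferase of histone H3 lysine 4. Each of 3 chips, called plates 1, 2 and 3, held control cells (Mll1fl/fl), cells lacking Mll1 (Mll1-/-, called deleted) and cells under Mll1 inhibition (called inhibited). The floxed alleles and Cre-ER TM are given for all cells. The labels name no inhibitor, dose, time or deleted exon, no tamoxifen or vehicle treatment, and no number of clones or cultures.

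The transcription factor p53 is held low by MDM2, which marks it for degradation, and accumulates when DNA damage or other stress breaks that hold. It then activates genes for cell cycle arrest, cell death, DNA repair and metabolism, and also Mdm2 itself, so that the pathway limits its own output. Because p53 is controlled mostly as a protein, its targets and its own transcript need not move together.

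p53 binds DNA through a consensus decamer, and a response element usually holds a pair of them. RefSeq promoter windows of 300 bases (build GRCm38.p6; 250 before and 50 after the start) were found for 6 members, Trp53, Cdkn1a, Mdm2, Ccng1, Phlda3 and Bax, and searched on both strands for exact matches to the decamer. Of these 6 genes, 5 held a match in at least 1 window, against 9.55% of all 27025 genes; of all 32851 windows of that length, 8.36% held one. Cdkn1a has a second window, chr17:29093519-29093768 (plus strand, upstream bases), which held none. The members were chosen as known p53 targets, so this count is a description and a match is not shown to be a bound site. The 250 upstream bases are shown for 3 genes that varied together between cells (Cdkn1a, Mdm2 and Ccng1) and for Bax, which did not vary with them. They are written 5' to 3' on the gene's strand, with each match in capitals. The windows are chr17:29090729-29090978 (plus strand) for Cdkn1a, chr10:117710759-117711008 (minus) for Mdm2, chr11:40755287-40755536 (minus) for Ccng1 and chr7:45466899-45467148 (minus) for Bax.
Cdkn1a: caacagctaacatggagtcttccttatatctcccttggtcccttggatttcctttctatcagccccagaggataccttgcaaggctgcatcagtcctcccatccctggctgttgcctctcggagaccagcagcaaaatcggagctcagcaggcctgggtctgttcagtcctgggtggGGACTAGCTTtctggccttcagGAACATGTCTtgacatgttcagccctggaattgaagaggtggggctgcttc
Mdm2: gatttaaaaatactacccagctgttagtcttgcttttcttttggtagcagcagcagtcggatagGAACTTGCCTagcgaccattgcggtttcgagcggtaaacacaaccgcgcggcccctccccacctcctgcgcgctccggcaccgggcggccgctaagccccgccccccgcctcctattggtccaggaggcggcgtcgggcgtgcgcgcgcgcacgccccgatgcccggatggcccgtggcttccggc
Ccng1: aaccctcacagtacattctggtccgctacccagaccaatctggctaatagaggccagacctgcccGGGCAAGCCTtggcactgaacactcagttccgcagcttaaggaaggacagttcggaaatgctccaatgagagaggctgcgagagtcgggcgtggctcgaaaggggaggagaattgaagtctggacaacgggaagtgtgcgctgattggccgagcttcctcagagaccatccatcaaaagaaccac
Bax: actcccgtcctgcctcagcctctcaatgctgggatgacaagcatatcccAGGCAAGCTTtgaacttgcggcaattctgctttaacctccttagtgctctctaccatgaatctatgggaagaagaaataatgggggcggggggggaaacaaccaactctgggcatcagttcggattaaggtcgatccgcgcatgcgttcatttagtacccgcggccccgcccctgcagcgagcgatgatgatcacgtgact
In the window shown, Cdkn1a held 2 exact matches, which start at positions -73 and -51 from that window's transcription start and lie 12 bases apart. At least 2 matches were in 0.359% of all windows. Near matches were not searched for, and whether these 2 form the pair of a response element was not tested. Mdm2, Ccng1 and Bax held 1 each, starting at -186, -185 and -201, and Trp53 (chr11:69580109-69580358, plus strand) held 1 at -75. Matching letters were thus present both in genes that varied together and in genes that did not.

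Of 4610 wells of the 3 cell types, 4413 were kept (1513 control, 1310 deleted and 1590 inhibited), and summing them per plate and cell type gave 9 libraries of 25914860 to 43773924 unique molecular identifiers (UMIs). Levels are CPM, the counts scaled to the library's total UMIs after TMM adjustment of that total; they are not scaled for transcript length, so levels of different genes are not compared. In such sums, fewer cells expressing a gene and less RNA per cell cannot be told apart. Kmt2a itself, in CPM on plates 1 to 3, read 50.2, 50.2 and 54.7 for control, 62.1, 49.9 and 39.2 for deleted and 40.6, 43.4 and 46.7 for inhibited cells. Since no label says which exons were removed, this does not check the genotype. All 15 pluripotent cell markers were detected in every cell type. They summed to 6583 to 6791 CPM in control, 5519 to 6963 CPM in deleted and 4940 to 5795 CPM in inhibited cells. The inhibited range lay below the control range, and after inhibition 10 of the 15 were below 0 and 5 above. Dppa5a alone was at 5515 ± 55.2 CPM in control and 4248 ± 432 CPM in inhibited cells (SD, n = 3). The part of these markers in the results below was not tested. Of 10 fibroblast and feeder markers 5 (Col1a1, Col1a2, Col3a1, Postn and Lum) stayed under 1 CPM everywhere. The 10 summed to 144 to 171 CPM in control, 157 to 277 in deleted and 137 to 202 in inhibited cells. Of the 6 of these that were tested, 4 were above 0 after deletion and 2 below. Acta2 was at 13.1 ± 3.47 CPM in deleted and 3.81 ± 1.47 in control cells without overlap (SD, n = 3). Tagln was at 137 ± 57.4 and 106 ± 15.8 with overlap. On plate 1 Tagln was lower in deleted (98.4 CPM) than in control cells (104 CPM). The part of the fibroblast and feeder markers in the results below was not tested. Barcodes were shared between plates 1266 times over the 3 pairs of plates, each time at the same chip position, so a shared barcode marks a position. The median mitochondrial share of UMIs was 3.06 to 3.18% in control, 3.24 to 3.48% in inhibited and 3.81 to 4.16% in deleted cells; its part in the results below was not tested. No label says whether the plates hold separate cultures. The p-values reflect only how far the differences between cell types vary from plate to plate, and that variation may be technical.

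The question for each member was whether its level differs when Mll1 is deleted or inhibited. Tnfrsf10b, Perp and Phlda3 read higher in every deleted library than in any control library, and Phlda3, Tnfrsf10b and Bax did so in the inhibited libraries. Such separation was seen, in that direction, in 5.44% of all genes for deletion and 5.02% for inhibition, and in the other direction, which no member took, in 5.52 and 6.23%. Between inhibited and deleted cells, Phlda3 and Bax read higher without overlap (5.39% of all genes) and Perp and Tnfrsf10b lower (6.38%). However, no member passed edgeR's quasi-likelihood test at an adjusted p of 0.05 in any comparison, and all 9 passed the filter on low counts. Calls were rare among all 17119 genes: 0.0350% of them passed for deleted against control cells, 0.00584% for inhibited against control cells and 0.310% for inhibited against deleted cells. At an unadjusted p under 0.05 there were 3 members of 9 for deletion (10.3% of all genes), 2 for inhibition (9.0%) and 3 between inhibition and deletion (13.7%). The median log2 difference of the members was 0.10 after deletion and 0.14 after inhibition, against 8.9e-05 and -0.00069 over all genes tested. Of all genes tested, 15.4% were higher on all 3 plates for deletion, 16.6% for inhibition and 17.5% between inhibition and deletion. In the same order, 16.3, 16.3 and 15.7% were lower on all 3 plates. These comparisons share libraries and are not independent of each other.

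**Figure D1:**
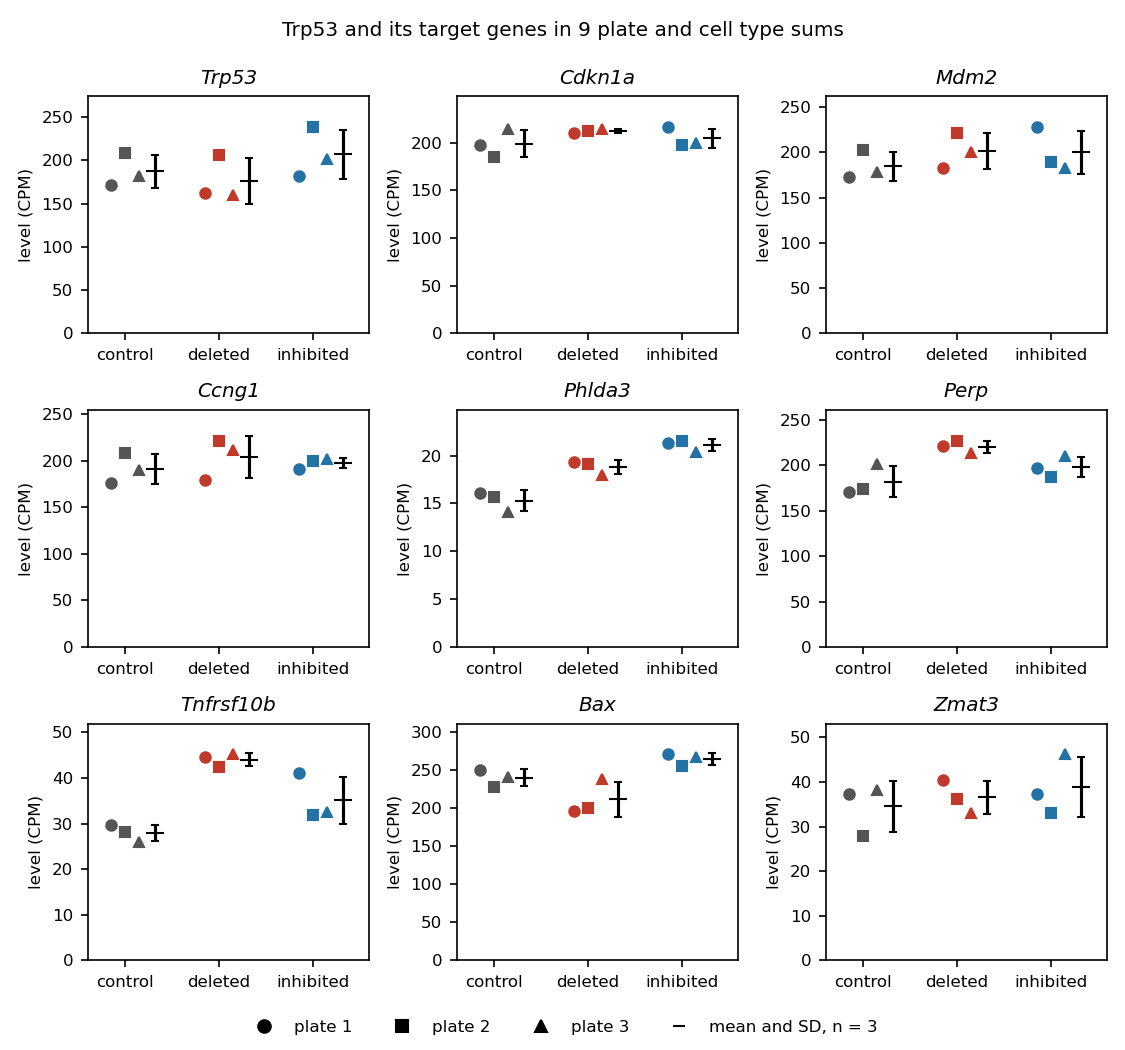
Level of each member (y axis, CPM, starting at 0) in the 9 sums of wells, by cell type (x axis); points are plates 1 to 3 and the bar is the mean with its SD (n = 3). Tnfrsf10b and Phlda3 are higher in every deleted and inhibited library than in any control library, while Cdkn1a, Mdm2 and Ccng1 overlap between the cell types.

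Trp53 (ENSMUSG00000059552; GRCm38/mm10 chromosome 11, 69580359 to 69591873, plus strand) was detected in every library. In CPM, in the order of the plates here and below, it read 172, 209 and 182 for control, 162, 207 and 160 for deleted and 181, 238 and 201 for inhibited cells. Plate 2 was the highest plate for every cell type, and the groups overlapped. Within each plate the inhibited cells were highest and the deleted cells lowest. Inhibited exceeded deleted cells by 0.23 ± 0.07 (SE) on the log2 scale (edgeR's quasi-likelihood test with Benjamini-Hochberg adjustment, adjusted p = 0.190), higher on 3 of 3 plates. The differences from control were smaller, at -0.09 ± 0.07 for deletion (adjusted p = 0.728) and 0.14 ± 0.07 for inhibition (0.607). In the same libraries the 22 S phase genes summed to 2945 to 3134 CPM in control, 2829 to 3080 CPM in deleted and 3239 to 3369 CPM in inhibited cells, and their part in the Trp53 difference was not tested.

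Mdm2 and Ccng1 are among the members that act back on p53. Mdm2 (chromosome 10, 117688875 to 117710758, minus strand), the ubiquitin ligase that degrades p53, read 173, 202 and 178 CPM for control, 182, 222 and 201 for deleted and 228, 190 and 183 for inhibited cells. Ccng1 (chromosome 11, 40748552 to 40755311, minus strand), which encodes cyclin G1 and acts with a phosphatase on MDM2, read 176, 208 and 190 CPM for control, 179, 221 and 212 for deleted and 191, 200 and 202 for inhibited cells. On all 3 plates the deleted cells were a little above control for both genes, with overlapping groups, and after inhibition both changed direction between plates. For Mdm2 the log2 difference was 0.13 ± 0.10 after deletion (adjusted p = 0.747) and 0.12 ± 0.10 after inhibition (0.804), and for Ccng1 it was 0.09 ± 0.07 (0.752) and 0.05 ± 0.07 (0.917). The inhibition value of Mdm2 rested on plate 1, where it was 0.40; without plate 1 it was -0.03.

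Cdkn1a (chromosome 17, 29090976 to 29100727, plus strand) encodes p21, the inhibitor of cyclin-dependent kinases that carries out p53-dependent arrest. It read 198, 186 and 214 CPM for control, 211, 212 and 214 for deleted and 216, 198 and 200 for inhibited cells. The 9 libraries thus spanned only 186 to 216 CPM, with overlapping groups. The log2 difference was 0.09 ± 0.07 after deletion (adjusted p = 0.734) and 0.04 ± 0.07 after inhibition (0.928), and inhibition turned to -0.04 with wells thinned to equal depth and to -0.01 without plate 1.

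Phlda3 (chromosome 1, 135766119 to 135769136, plus strand), which encodes a pleckstrin-homology protein that restrains AKT, was among the lower counts. It read 16.1, 15.7 and 14.1 CPM for control, 19.3, 19.1 and 17.95 for deleted and 21.3, 21.5 and 20.4 for inhibited cells. Each group lay above the one before it without overlap. The log2 difference was 0.30 ± 0.15 after deletion (adjusted p = 0.547) and 0.46 ± 0.15 after inhibition (0.389). Between inhibition and deletion it was 0.17 ± 0.15 (0.696), and this turned to -0.18 with wells thinned to equal depth, where deletion gave 0.54 (0.281) and inhibition 0.36 (0.623).

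Perp (chromosome 10, 18845020 to 18857073, plus strand) encodes a tetraspan membrane protein of desmosomes. It read 171, 174 and 202 CPM for control, 221, 227 and 214 for deleted and 197, 188 and 210 for inhibited cells. Deleted cells lay above both other groups without overlap. The log2 difference from control was 0.28 ± 0.08 (adjusted p = 0.275), higher on 3 of 3 plates, but it was 0.03 (0.949) with wells thinned to equal depth. Inhibited against control cells gave 0.12 ± 0.08 (0.702), which was -0.01 when thinned. In the same deleted libraries the trophectoderm markers summed to 1047 to 1702 CPM, against 801 to 939 CPM in control cells, and 10 of 10 tested were above 0; Elf5 was under 1 CPM everywhere. Their part in the Perp difference was not tested.

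Tnfrsf10b (chromosome 14, 69767472 to 69784411, plus strand), the death receptor for TRAIL, had the smallest p among the members. It read 29.6, 28.2 and 26.0 CPM for control, 44.6, 42.4 and 45.2 for deleted and 41.1, 31.9 and 32.5 for inhibited cells. The groups did not overlap, with control lowest and deleted highest. The log2 difference was 0.66 ± 0.13 after deletion (1.58-fold, adjusted p = 0.145), 0.32 ± 0.13 after inhibition (0.484) and -0.33 ± 0.13 between inhibition and deletion (0.281). DESeq2 called the deletion difference (0.66, adjusted p = 0.000709), as did edgeR with no filter on low counts (0.67, 0.0133). With wells thinned to equal depth the inhibition difference was 0.05 (adjusted p = 0.970).

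The Tnfrsf10b counts came from few wells. The 10 highest wells of each library held 29.1 to 49.4% of its Tnfrsf10b UMIs. With wells thinned to 5869 UMIs and shallower wells left out, the log2 difference after deletion was 0.27 (edgeR's quasi-likelihood test, adjusted p = 0.643). At that depth the share of wells with a UMI was 13.4% ± 0.104 in deleted and 13.1% ± 1.18 in control cells (SD, n = 3), while the UMIs per positive well were 1.81 ± 0.0684 and 1.54 ± 0.0981. So at that depth the shares of positive wells differed by 0.37 points (-1.04 to 1.22 over the plates), while the count in positive wells was higher on each plate. At 20000 UMIs per well the share was higher in deleted cells on each plate, at 30.3, 29.9 and 31.5% against 26.8, 24.7 and 29.2% in control cells, a mean difference of 3.65 points. The mean count at that depth was also higher on each plate. It was 0.979, 0.973 and 1.06 Tnfrsf10b UMIs per well in deleted and 0.641, 0.547 and 0.605 in control cells. These means were not tested. Cells were dispensed from 7 deleted, 8 control and 9 inhibited source wells over the 3 plates; by source well, the level was 25.9 to 65.2 CPM (median 42.4) in deleted, 17.9 to 37.2 CPM (median 27.3) in control and 25.0 to 57.3 CPM (median 29.8) in inhibited cells, and these ranges overlapped. Source wells of a plate were looked at after the library values were seen and are not replicates. Their layout changed on plate 3. Control cells came from A1, B1 and C1 on plates 1 and 2 and from D1 and D2 on plate 3. Deleted cells came from D1 and D2, then from A2, B2 and C2 on plate 3. Inhibited cells came from A2, B2 and C2, then from A1, B1 and C1 on plate 3. The deposited cell types were used as given, so every statement on 3 plates rests on them.

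Bax (chromosome 7, 45461697 to 45466898, minus strand), the pore-forming protein of mitochondrial apoptosis, read 251, 228 and 241 CPM for control, 197, 201 and 238 for deleted and 271, 255 and 268 for inhibited cells. Inhibited cells lay above both other groups without overlap, and deleted cells were below control on every plate. Inhibited exceeded deleted cells by 0.32 ± 0.08 (adjusted p = 0.120), higher on 3 of 3 plates. DESeq2 called this difference (0.33, adjusted p = 0.00823), as did edgeR with no filter on low counts (0.32, 0.0442). Against control the difference was -0.18 ± 0.08 for deletion (0.448) and 0.14 ± 0.08 for inhibition (0.637). The deletion difference was -0.35, -0.19 and -0.02 on plates 1 to 3; it was -0.09 without plate 1 and -0.27 without plate 3. Bax overlaps Gm45808 on the same strand, and no source used here says how reads in the overlap were assigned.

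Zmat3 (chromosome 3, 32334792 to 32366014, minus strand), which encodes a zinc-finger RNA-binding protein, read 37.4, 27.9 and 38.2 CPM for control, 40.4, 36.2 and 33.0 for deleted and 37.2, 33.1 and 46.2 for inhibited cells. The groups overlapped. The log2 difference was 0.10 ± 0.15 after deletion (adjusted p = 0.891) and 0.17 ± 0.15 after inhibition (0.806). In inhibited cells of plate 3 a single well held 204 of its 1766 UMIs.

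**Figure D2:**
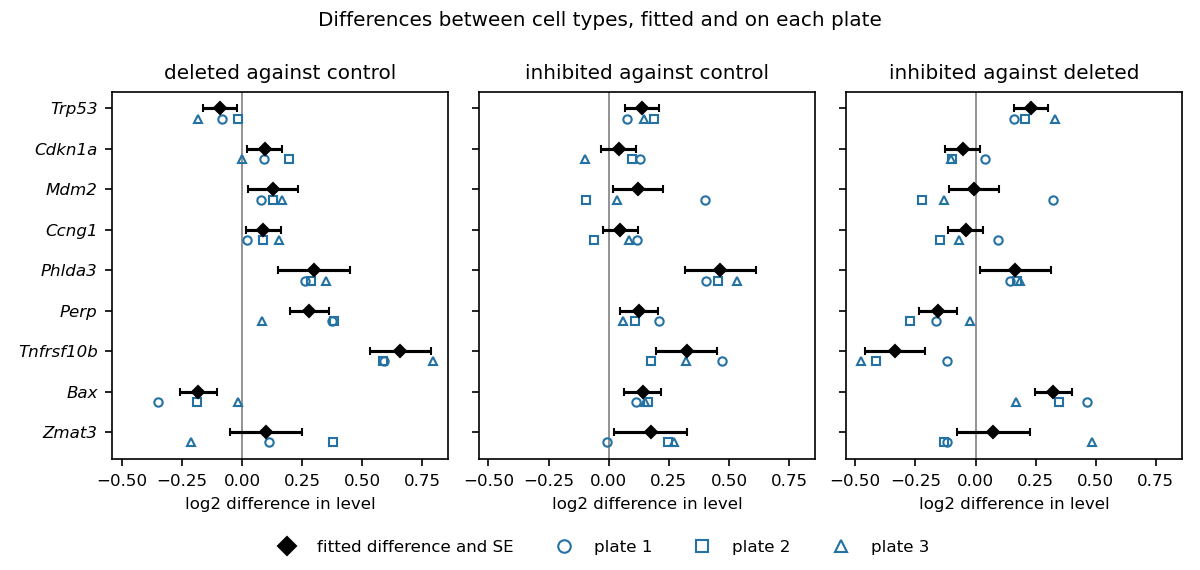
Log2 difference in level (x axis) for each member (y axis) in the 3 comparisons; diamonds with bars are the fitted difference and its SE, and open symbols the difference on each plate. For deleted against control cells Tnfrsf10b stands at 0.66 with all 3 plates between 0.59 and 0.80, while Mdm2 after inhibition spreads from -0.09 to 0.40.

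The rest of the pathway was read from 4 further lists. None of their genes passed the adjusted threshold in any comparison. Of 21 tested regulators and partners of p53, 13 were above 0 after deletion and 10 after inhibition. Ppm1d, the phosphatase that switches p53 signalling off, was at 14.8 ± 4.46 CPM in control and 22.1 ± 4.30 CPM in deleted cells (SD, n = 3), with overlap (log2 0.58 ± 0.23, adjusted p = 0.426). Trp53bp1, a DNA break response protein, differed by -0.64 ± 0.26 (0.431), and Rchy1, a ubiquitin ligase for p53, by 0.33 ± 0.13 after inhibition (0.482), where Ppm1d was at 0.52 ± 0.23 (0.559).

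Of 16 other arrest and stress targets, 10 were above 0 after deletion and 11 after inhibition, with medians of 0.07 and 0.08. Sfn, which encodes 14-3-3 sigma, was at 115, 93.9 and 93.1 CPM in control and 162, 112 and 139 CPM in deleted cells (0.44 ± 0.09, adjusted p = 0.159). The highest control library lay above the lowest deleted one. Btg2, an antiproliferative gene, differed by 0.22 ± 0.09 after deletion (0.449), and Plk2, a polo-like kinase, by 0.27 ± 0.11 after inhibition (0.511), where Sfn was at 0.24 ± 0.09 (0.462).

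Of 12 tested death targets, 7 were above 0 after deletion and 9 after inhibition, with medians of 0.04 and 0.25. Pmaip1, which encodes the BH3-only protein NOXA, was at 28.5, 31.9 and 37.0 CPM in control and 41.3, 47.7 and 39.3 CPM in deleted cells, with no overlap (0.41 ± 0.15, adjusted p = 0.388). Fas, a death receptor, was at 0.832 to 1.44 CPM in control and 2.74 to 4.27 CPM in deleted cells (1.62 ± 0.56, 0.364). After inhibition the smallest p belonged to Siva1, at 0.24 ± 0.11 (0.575), and Apaf1, the scaffold of the apoptosome, at 0.28 ± 0.15 (0.608).

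Of 20 repair and metabolism targets, 12 were above 0 after deletion and 16 after inhibition, with medians of 0.09 and 0.16. Dcxr, which encodes a xylulose reductase, read 60.9, 58.5 and 48.7 CPM for control, 58.0, 58.1 and 58.5 for deleted and 81.1, 86.2 and 75.9 for inhibited cells. Inhibited cells were above both other groups without overlap, at 0.54 ± 0.10 against control (adjusted p = 0.231) and 0.47 ± 0.10 against deleted cells (0.0949). Gls2, a glutaminase, was at 1.01 to 3.03 CPM in control and 3.62 to 5.09 CPM in inhibited cells (1.42 ± 0.53, 0.456), and Abhd4, a lipase, differed by 0.42 ± 0.14 after deletion (0.349). Rps27l, a ribosomal protein paralog, differed by -0.17 ± 0.05 after deletion (0.284); counts of such a paralog are uncertain where reads fit several genes.

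Between inhibited and deleted cells, 10 of 21 regulators, 6 of 16 arrest and stress targets, 7 of 12 death targets and 14 of 20 repair and metabolism targets were above 0. Psrc1, a spindle protein gene, was at 101, 124 and 98.9 CPM in deleted and 130, 155 and 122.6 CPM in inhibited cells, higher on every plate with overlapping groups (0.33 ± 0.08, adjusted p = 0.113). Fas, at -1.35 ± 0.56 (0.325), and Sfn, at -0.21 ± 0.09 (0.330), were lower in inhibited cells, as was Plk3, a polo-like kinase, at -0.42 ± 0.20 (0.397). Among regulators, the coactivator gene Crebbp was at 0.34 ± 0.14 (0.342) and the DNA damage kinase gene Atr at -0.65 ± 0.28 (0.353). Trp53i13 was at 0.55 ± 0.24 (0.363).

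How many cells showed each transcript was compared after thinning each well to 5869 UMIs, which 3971 of the kept wells reached. Bax was seen in 71.6% ± 1.94 of control, 67.2% ± 1.58 of deleted and 73.1% ± 2.95 of inhibited wells (SD, n = 3). The inhibited share exceeded the deleted share by 4.36 to 7.39 percentage points on the 3 plates (mean 5.89; exact two-sided sign permutation test over plates, p = 0.25, the smallest it can give). Phlda3 was seen in 10.6% ± 1.20 of control, 13.8% ± 1.35 of deleted and 13.7% ± 1.398 of inhibited wells. Both treated groups exceeded control on every plate (exact sign permutation test, p = 0.25 each), and their own difference of -0.13 points changed sign between plates.

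For the other members the ranges over plates overlapped between the cell types, but some differences had 1 sign within every plate. Trp53 shares were higher in inhibited than in control cells by 1.88 to 3.37 points and than in deleted cells by 1.58 to 4.41 points. Inhibited minus deleted was -4.16 to -0.26 points for Cdkn1a and -5.43 to -0.30 points for Perp. For Zmat3 all 3 comparisons kept their sign, at 1.38 to 3.74 points for deletion, 0.79 to 1.58 for inhibition and -2.16 to -0.59 between inhibition and deletion. For each of these the exact sign permutation test gave p = 0.25, the smallest it can give. How many of all genes kept 1 sign on every plate was not counted. These differences, and those of Bax and Phlda3, are therefore descriptions. Trp53 was seen in 54.6% ± 5.95 of control, 54.1% ± 5.62 of deleted and 57.1% ± 5.74 of inhibited wells, and Cdkn1a in 46.5% ± 1.75, 46.2% ± 2.86 and 43.6% ± 2.45. For Mdm2 the shares were 51.3% ± 4.82, 50.5% ± 3.39 and 49.7% ± 2.44, and for Ccng1 53.3% ± 3.25, 53.5% ± 4.39 and 51.7% ± 0.777. Perp was seen in 54.7% ± 6.52, 54.6% ± 3.54 and 50.9% ± 2.03, and its difference between deleted and control cells ran from -10.9 to 7.17 points over the plates. Zmat3 was seen in 15.6% ± 2.14, 18.02% ± 2.498 and 16.6% ± 2.33. At 20000 UMIs per well the Zmat3 difference after deletion was -3.80 points, against 2.46 at 5869. There the Zmat3 shares were 36.4, 29.2 and 42.0% in control, 34.1, 33.0 and 29.1% in deleted and 33.9, 27.9 and 35.0% in inhibited cells. Inhibition was thus below control on every plate, and the other comparisons changed sign. Signs also turned on plate 3 for Trp53 (80.9% of inhibited, 86.4% of control wells) and Perp (79.3% of inhibited, 76.5% of deleted). Inhibited minus deleted kept its sign for Trp53 and Cdkn1a. In 15 wells without cells (median 165 UMIs, 2719 in all), Cdkn1a, Ccng1 and Bax had 2 UMIs each, Perp and Zmat3 had 1, and the other members had none; a count of 0 there allows up to 1103 CPM, so these wells are too shallow to set a background.

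Co-variation between cells was read within each plate and cell type, in wells thinned to 20000 UMIs (2896 wells, 243 to 437 a group). Wells of a group share a library, and thinning gives each the same total. Cdkn1a and Mdm2 had the highest Spearman correlation among the 36 pairs, 0.26 on average over the 9 groups (0.12 to 0.36). Over all 3417805 pairs of the 2615 genes with at least 1 UMI per well, the median was 0.012 and the 5th to 95th percentiles were -0.044 to 0.071. All these correlations are weak, as counts of a few UMIs per well allow.

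Mdm2, Cdkn1a, Ccng1 and Perp correlated with each other. Mdm2 with Perp and Ccng1 with Perp were both at 0.17, Cdkn1a with Perp and with Ccng1 at 0.15, and Mdm2 with Ccng1 at 0.14. Each of these was above 0 in 9 of 9 groups. Tnfrsf10b correlated with these 4 more weakly, at 0.12 with Perp, 0.11 with Mdm2, 0.10 with Cdkn1a and 0.09 with Ccng1, also above 0 in all 9 groups. Over all genes compared, the 95th percentile was 0.119 for Perp, 0.064 for Mdm2, 0.089 for Cdkn1a, 0.078 for Ccng1 and 0.067 for Tnfrsf10b. Perp with Tnfrsf10b, at 0.1185, thus did not exceed the percentile of Perp. Phlda3 was at 0.09 with Mdm2 and 0.07 with Cdkn1a, while Zmat3 reached at most 0.04 with any member. Phlda3, Tnfrsf10b and Zmat3 had means of 0.339 to 1.06 UMIs per well, against 3.44 to 5.47 for the other members.

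**Figure D3:**
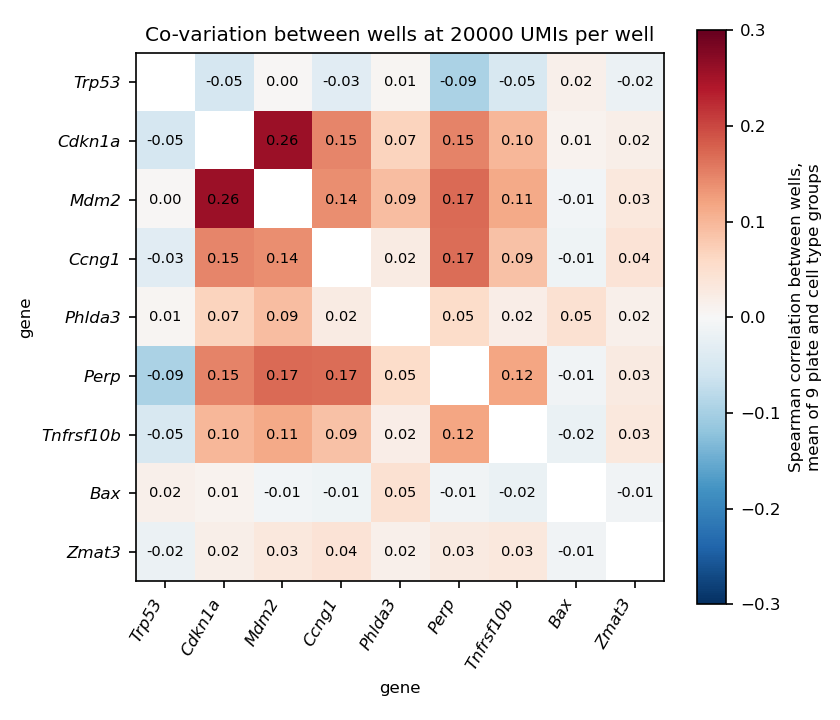
Spearman correlation between wells (colour and printed value) for each pair of members (both axes), as the mean over 9 plate and cell type groups at 20000 UMIs per well. Cdkn1a and Mdm2 reach 0.26, the pairs among Cdkn1a, Mdm2, Ccng1 and Perp lie at 0.14 or above, and the lines of Trp53 and Bax stay between -0.09 and 0.05.

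These correlations were compared between the cell types. Cdkn1a with Mdm2 averaged 0.27 in control, 0.28 in deleted and 0.23 in inhibited cells. Mdm2 with Perp averaged 0.16, 0.19 and 0.16 in the same order, and Ccng1 with Perp 0.21, 0.13 and 0.16. On single plates, the control cells gave 0.12, 0.31 and 0.36 for Cdkn1a with Mdm2, a wider range than that of the cell type means. The difference between cell types was not tested.

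Trp53 and Bax, with counts per well in the same range, did not correlate with these genes in that way. Trp53 was at -0.09 with Perp, below 0 in all 9 groups (-0.15 to -0.01), at -0.05 with Cdkn1a and Tnfrsf10b, and at 0.00 with Mdm2. Bax lay between -0.02 and 0.05 with every other member. Per well, the Trp53 transcript thus had correlations of at most 0.02 with the transcripts of its targets.

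Across all 2614 other genes, those most like Cdkn1a were Plk2 (0.26), Mdm2 (0.26), Clic1 (0.21), Cald1 (0.20) and Cryab (0.19). Plk2 is itself a p53 target; Clic1 encodes a chloride channel protein, Cald1 an actin-binding protein and Cryab a small heat shock protein. Those least like it were Mylpf (-0.17), Npm1 (-0.16) and Mkrn1 (-0.16). For Mdm2 the most alike were Cdkn1a (0.26), Plk2 (0.22), Btg2 (0.20), Ddit4l (0.20) and Perp (0.17). Cdkn1a, Plk2, Btg2 and Perp are known p53 targets, and Ddit4l restrains mTOR signalling. The least alike were Npm1 (-0.13), Gm10039 (-0.12) and Mylpf (-0.12). Perp ranked 25 and Ccng1 27 among the genes most like Cdkn1a, while Trp53 ranked 2356. The genes most like Perp were not members but Lgals1 (0.30), Ahnak (0.29), Anxa3 (0.27) and Cd81 (0.26), with Mdm2, Ccng1 and Cdkn1a at ranks 43, 46 and 67, and the gene most like Ccng1 was Cald1 (0.18), followed by Perp (0.17). These last were named after their values were seen.

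Lists of other p53 targets were then summed per well. The arrest and stress targets correlated with Mdm2 at 0.23 (0.13 to 0.34 over the groups) and with Cdkn1a at 0.20 (0.10 to 0.30). The death targets were weaker, at 0.13 with Mdm2 and 0.10 with Cdkn1a, and the repair and metabolism targets were at 0.07 with Mdm2 (-0.06 to 0.14), 0.09 with Cdkn1a and -0.04 with Phlda3. The regulators and partners stayed at 0.06 or below with every member.

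Lists of cell cycle and cell type genes were summed in the same way. The S phase list was at -0.14 with Cdkn1a, -0.13 with Perp and 0.14 with Trp53, and each kept its sign in all 9 groups. With Mdm2 it was at -0.04 (-0.14 to 0.04) and with Ccng1 at -0.05 (-0.14 to 0.02), so these changed sign between groups. The list of G2 and mitosis genes was near 0, from -0.03 to 0.06 over the members. Perp was at -0.25 with the pluripotent cell markers (-0.34 to -0.15), 0.21 with the trophectoderm markers (0.12 to 0.33) and 0.22 with the endoderm markers (0.17 to 0.30). Cdkn1a, Mdm2, Ccng1 and Tnfrsf10b had the same signs at smaller sizes, -0.11 to -0.15 with the pluripotent markers and 0.10 to 0.16 with the other 2 lists. Trp53 went the opposite way, at 0.07 with the pluripotent and -0.11 with the trophectoderm markers. The part of cell state in the correlations between members was not tested.

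**Figure D4:**
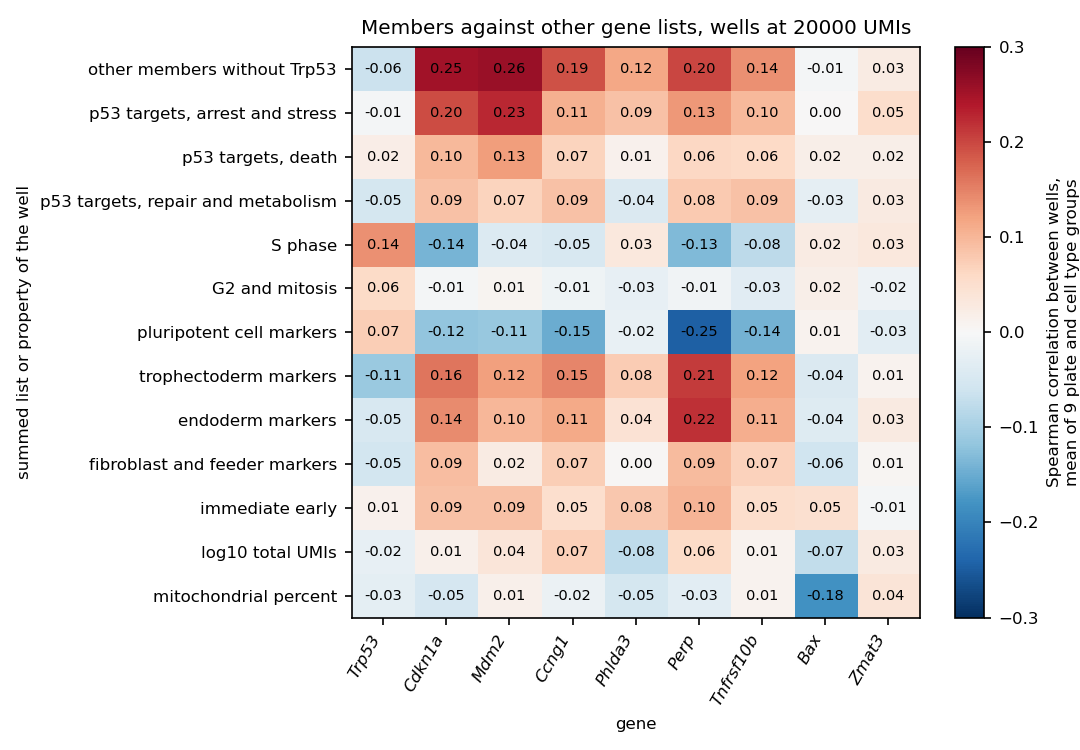
Spearman correlation between wells (colour and printed value) of each member (x axis) with the summed UMIs of other gene lists, the well's total UMIs before thinning and its mitochondrial share (y axis), as the mean over 9 groups. Perp runs from -0.25 with pluripotent markers to 0.22 with endoderm markers, Trp53 has the opposite sign to Cdkn1a for S phase genes, and Bax is at -0.18 with the mitochondrial share.

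Total UMIs of the well before thinning correlated with the members at -0.08 to 0.07, and with Cdkn1a, Mdm2, Ccng1 and Perp at 0.01 to 0.07. The mitochondrial share was at -0.18 with Bax (-0.35 to -0.06, below 0 in all 9 groups) and between -0.05 and 0.04 with the other members. Deleted cells, in which Bax was lowest, also had the highest mitochondrial share on each plate; its part in the Bax difference was not tested.

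By variance over mean, Cdkn1a was the member most unevenly spread over cells. At 20000 UMIs per well its variance was 9.19 times its mean on average over the 9 groups (7.19 to 12.7), against a median of 4.68 for genes of like mean, and it lay above 91.2 to 98.7% of those genes. The 10% of wells highest in Cdkn1a held 41.8 to 46.5% of its UMIs, and the highest well had 66. By that share the members of lower mean were more uneven, at 69.6% for Tnfrsf10b, 59.6% for Zmat3 and 51.6% for Phlda3 on average, against 44.1% for Cdkn1a. Mdm2 was next at 6.49 (4.93 to 8.96), followed by Trp53 at 5.57, Perp at 5.17, Tnfrsf10b at 5.10, Ccng1 at 4.75 and Zmat3 at 3.30. Trp53 ranged from 4.12 to 10.1; its highest group, the inhibited cells of plate 3, also held its highest well, of 76 UMIs.

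Bax and Phlda3 had the lowest variance over mean. The variance of Bax was 2.74 times its mean (2.27 to 3.38; genes of like mean 4.70), and 6.37 to 15.9% of like genes lay below it. That of Phlda3 was 1.38 (1.10 to 1.90; genes of like mean 3.71). The medians of like genes, 2.78 to 5.65 over all members and groups, lay above the value of 1 that pure sampling of UMIs gives, so UMIs of a gene came in clumps and intervals from counting alone are too narrow. The summed 8 targets had a median of 19 to 21 UMIs per well in each of the 9 groups, with 10th percentiles of 8 to 10 and 90th percentiles of 37 to 43.

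**Figure D5:**
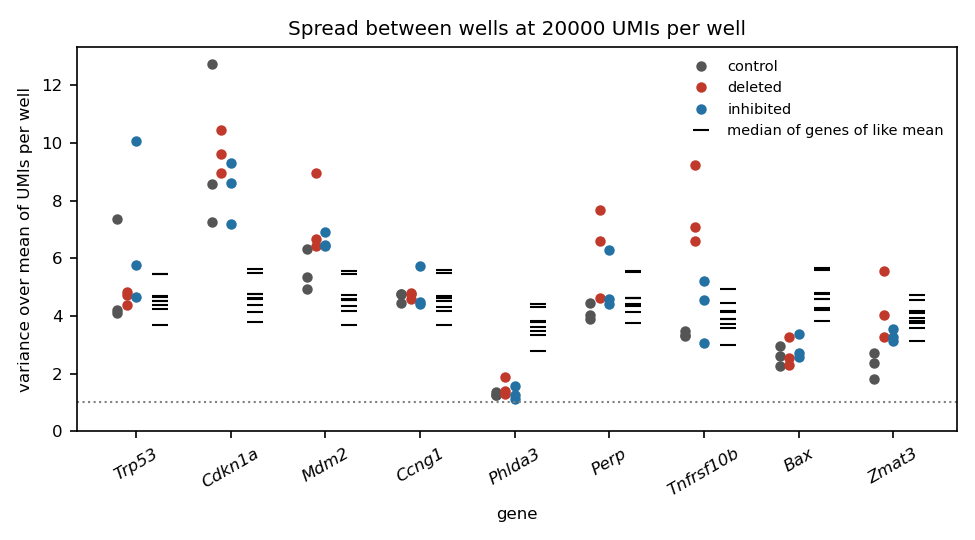
Variance over mean of UMIs per well at 20000 UMIs (y axis, starting at 0) for each member (x axis), with a point per plate and cell type and a dash per group for the median of genes of like mean; the dotted line at 1 is pure sampling. All 9 points of Cdkn1a lie above 7, and all points of Bax and Phlda3 lie below the medians of their like genes.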

How the data were processed

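Per the labels' protocols, single-cell RNA was reverse transcribed with barcoded primers on 3 chips, and Nextera XT libraries were built with modifications. The submitters' processing notes name STAR 2.5.2b, featureCounts, Subread 1.4.6-p1 and the build mm10, with no order. The deposited tables hold unnormalised UMI counts for each gene in each well, as the authors left them; a report deposited for each plate gives each well's type, which set the cell type. In all wells the sums equalled those of the report. The sources used here do not say how multimapping reads were treated or whether strand was used. Sequences that name no mouse gene took 0.646 to 0.752% of UMIs and were left out.

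Wells with at least 1000 genes and under 20% mitochondrial UMIs were kept. Counts were summed per plate and cell type and tested in edgeR 4.0.16 (R 4.3.3) with TMM, filterByExpr and the quasi-likelihood F test, the plate as a block, and Benjamini-Hochberg adjustment over all genes. Symbols matched 28641 of 29267 identifiers. Same-plate libraries deviated together (correlations of 0.0782 to 0.141 over 9 pairs, against -0.101 to 0.00858 over 18 pairs from different plates), though some pairs were below 0.1; the block rests on the labels, which put every cell type on every plate. CPM use TMM-scaled totals. Wells were thinned at random to 5869 UMIs (the 10th percentile) for shares of positive wells and to 20000 UMIs (2896 wells; 1517 were below) for correlations and spread. Doublets were not called; the deepest 5% of wells were left out in an alternative. Methods were tested on simulated data.

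The members and lists were chosen with earlier results of these data known. All 9 members are reported throughout; of each of 4 further p53 lists, any gene past the threshold and the 2 with the smallest p in each comparison are named; for Cdkn1a and Mdm2, the 5 most and 3 least alike genes with at least 1 UMI per well. The alternatives tried were RLE factors, DESeq2 1.42.0, no filter, no block, each plate left out, thinned wells, no deepest wells, no mitochondrial genes and a stricter well filter.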

Additional observations from a re-analysis of the deposited data

Results flagged for a closer look

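For Trp53, deleted cells were below and inhibited cells above control on each of the 3 plates, so the treated groups differ in direction. The direct comparison of inhibited with deleted cells gave 0.23 ± 0.07 (SE, log2), with an adjusted p of 0.190 in edgeR's quasi-likelihood test, which does not pass the threshold.

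Bax had the same pattern on each plate, and inhibited exceeded deleted cells by 0.32 ± 0.08, with an adjusted p of 0.120 in the same test. Both comparisons with control use the same control libraries. Of all 17119 genes tested, 248 (1.45%) were below control after deletion and above it after inhibition on all 3 plates. The median mitochondrial share was higher in deleted than in inhibited cells on every plate, and its part in the pattern was not tested.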

How the results depend on the processing

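Over 27 differences of members and 11 alternatives, 278 values kept their direction and side of the threshold, 15 reversed and 4 passed the threshold where the reported test did not (Tnfrsf10b and Bax, with DESeq2 and with no filter on low counts). Thinned wells gave -0.043 for Cdkn1a, -0.014 for Ccng1 and -0.0066 for Perp after inhibition, and -0.18 for Phlda3 and -0.21 for Zmat3 between inhibition and deletion. The last was -0.031 without the deepest 5% of wells. Mdm2 between inhibition and deletion was 4.4e-06 with RLE factors and 0.00059 with DESeq2. Leaving out each plate in turn (plates 1, 2 and 3) gave ranges that crossed 0. They were -0.041 to 0.24 for Zmat3 after deletion, and -0.0091 to 0.11 for Cdkn1a and -0.034 to 0.23 for Mdm2 after inhibition. Between inhibition and deletion they were -0.19 to 0.10 for Mdm2, -0.12 to 0.012 for Ccng1 and -0.12 to 0.18 for Zmat3. None of these passed the threshold under any alternative, and the cause was not tested.

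The number of genes called was 6 for deletion, 1 for inhibition and 53 between inhibition and deletion. It was 446, 334 and 805 with DESeq2, 179, 108 and 383 with no filter, and 71, 67 and 197 of 10841 genes with wells thinned. With mitochondrial genes left out deletion gave 3 and inhibition 0 (1509 at an unadjusted p under 0.05 in edgeR), and without the deepest wells inhibition against deletion gave 31. With each plate left out the counts ran from 1 to 5 for deletion (lowest without plate 2) and 0 to 73 between inhibition and deletion (0 without plate 2, with 1630 unadjusted; 5 without plate 1). For inhibition they were 0 to 0 in edgeR, with 1092 to 1352 at an unadjusted p under 0.05. Without the plate as a block, edgeR called 0 genes for deletion (1035 unadjusted), 0 for inhibition (851) and 3 between inhibition and deletion. No member was called with the block or without it, so there was no call of a member that could depend on it.

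Of 27 differences in the share of positive wells, 11 had the same sign on all plates, and 13 to 19 did with a plate left out, when only 2 plates need to match. The mean correlation over the 36 pairs was 0.066, and 0.034 with wells thinned to 5869 UMIs, where Cdkn1a with Mdm2 was 0.13. Phlda3, Tnfrsf10b and Zmat3 were seen in only 10.6 to 18.02% of wells at 5869 UMIs, which limits the precision of their shares.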

Other observations

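The 86 wells left out for 20% or more mitochondrial UMIs (median 21982 UMIs) came from all 3 cell types and are not a group of the study. Their mitochondrial UMIs take a larger part of the total, which lowers the CPM of other genes. Their CPM were scaled to all their UMIs without TMM adjustment, unlike those of the kept libraries. Summed, they held 118 CPM of Trp53, 111 CPM of Cdkn1a, 132 CPM of Bax and 149 CPM of Ccng1, all below the lowest of the 9 kept libraries (160, 186, 197 and 176 CPM). Mdm2 was at 247 CPM and Phlda3 at 32.4 CPM, both above the highest kept library (228 and 21.5 CPM). Tnfrsf10b (32.4 CPM) and Zmat3 (36.6 CPM) lay within the range of the kept libraries. Perp (171 CPM) was level with its lowest kept library (171 CPM). A UMI of Perp was seen in 80.2% of these wells, of Bax in 77.9%, of Ccng1 in 69.8% and of Mdm2 in 68.6%. These wells form a single sum, so none of this was tested.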
